A study of Mus musculus with 8 samples.

Results

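The colony-stimulating and growth factor genes Csf1, Csf2, Csf3, Vegfa, Pdgfa, Pdgfb, Tgfb1, Hbegf, Areg and Igf1 were followed in mouse peritoneal macrophages that had met lipopolysaccharide (LPS), interferon beta (IFNb) or both. These 10 genes were chosen by name, out of 30284 genes with a summed value. Total RNA of macrophages from male C57BL6 mice aged 7 weeks was sequenced in 8 libraries, 2 in each of 4 groups. LPS+IFNb mice received IFNb for 4 h and then LPS for 4 h, LPS mice received LPS for 4 h, IFNb mice received IFNb for 4 h, and Saline mice received saline for 4 h. Stimulation was given into the peritoneal cavity of the mouse, so the cells met each agent among the other cells of the cavity. LPS is the outer-membrane component of Gram-negative bacteria that TLR4 senses, and IFNb is a type I interferon. The interval since IFNb was 8 h in LPS+IFNb and 4 h in IFNb, and no group had IFNb followed by saline, so this interval and the addition of LPS cannot be told apart in comparisons of LPS+IFNb with IFNb.

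Expression is in TPM, a transcript abundance corrected for length and scaled to the same sum in each library, so levels can be set side by side between genes, but the number of reads behind a value is unknown. Whether libraries of a group are separate animals is not in the labels, so a p-value here reflects library-to-library spread, which may be technical. Across genes, r was 0.971 to 0.983 within groups and 0.823 to 0.951 between groups. The 8 macrophage markers summed to 14600 to 21900 TPM per library, with Adgre1, the F4/80 antigen, at 189 to 307 TPM. Gata6, which defines resident large peritoneal macrophages, was low at 0.862 to 2.11 TPM, and Timd4, another of their markers, was at 0.427 to 3.38 TPM. Other markers on the same list were higher. Fn1 was at 139 to 791 TPM, Prg4 at 10.03 to 23.8 TPM and Icam2 at 7.9 to 19.6 TPM. Cxcl13 was at 2.84 to 29.98 TPM, Selp at 0.519 to 13.2 TPM and Garnl3 at 0.990 to 6.25 TPM. The 9 neutrophil markers summed to 142 to 286 TPM, mostly from S100a8 (36.7 to 115 TPM), Retnlg (27.3 to 128 TPM) and Mmp8 (36.6 to 73.5 TPM), while Ngp was at most 0.0504 TPM, Camp at most 0.735 TPM and Ly6g at most 0.746 TPM. The mast cell list summed to 56.8 to 97.7 TPM.

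Csf1, Csf2 and Csf3 encode the macrophage, granulocyte-macrophage and granulocyte colony-stimulating factors, which sustain and expand myeloid cells through the receptors encoded by Csf1r, Csf2ra with Csf2rb, and Csf3r. Hbegf and Areg encode membrane-anchored ligands of the EGF receptor that ADAM proteases release, Pdgfa and Pdgfb the chains of platelet-derived growth factor that drive fibroblasts and pericytes, and Vegfa the main angiogenic factor, which hypoxia-inducible factor turns on. Tgfb1 encodes a latent factor that restrains inflammation and promotes scarring once activated, and Igf1 an insulin-like factor that macrophages supply during repair.

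Messenger RNAs of rapidly induced cytokines often carry AU-rich elements, clusters of ATTTA in the 3′ untranslated region that decay factors bind. The windows below are the 30 bases richest in ATTTA in the mature transcripts (GENCODE M21, GRCm38) of the 3 members that were at or near 0 in Saline and of Vegfa, the member whose libraries differed most within groups. Capitals mark ATTTA.
Csf2: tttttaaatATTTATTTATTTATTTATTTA
Csf3: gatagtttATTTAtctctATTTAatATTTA
Areg: ataATTTATTTAatATTTAagtgttATTTA
Vegfa: tcttggttaatATTTAatttcaactATTTA
The Csf2 window covers bases 230 to 259 of an untranslated region of 317 bases that held 9 copies, and 0 of 898 other tested genes with a region within 20% of that length had as many. The Csf3 region (window at bases 24 to 53) held 6 copies in 669 bases, which 22 of 1280 genes of like length matched. The Areg region (window at bases 190 to 219) held 4 copies in 253 bases, which 6 of 748 genes matched. The Vegfa-201 region (window at bases 1222 to 1251) held 9 in 1865 bases, which 77 of 1688 genes matched. Pdgfa had 0 copies in 1203 bases and Tgfb1 had 1 in 135 bases. The longer element TTATTTATT, read on the transcript strand, was in 3 of the 10 members (Csf2, Vegfa and Areg) and in 7.85% of 11311 tested genes with such a region. These counts describe the letters and say nothing of decay in these cells.

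The sequence before the Csf1 start is shown because Csf1 rose with each agent and its RefSeq start lies at the end of the gene model used for the TPM sums. It covers the 250 bases chr3:107760470-107760719 on the minus strand (RefSeq, GRCm38.p6), and capitals mark a match to the NF-kB consensus, on the opposite strand to the gene, 145 to 154 bases before the start.
Csf1: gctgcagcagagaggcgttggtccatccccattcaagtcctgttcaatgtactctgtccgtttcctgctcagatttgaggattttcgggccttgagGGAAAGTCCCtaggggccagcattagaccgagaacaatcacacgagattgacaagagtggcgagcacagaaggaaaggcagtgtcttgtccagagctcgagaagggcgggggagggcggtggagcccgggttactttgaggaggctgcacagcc
Both strands of 300-base windows, from 250 bases before to 50 after a start, were searched for the 7 members with a RefSeq promoter (Csf1, Areg, Pdgfa, Tgfb1, Igf1, Csf2 and Vegfa; Csf3, Hbegf and Pdgfb are named only). The NF-kB consensus matched in Csf1 and in the upstream Vegfa window, and in 4.51% of 32851 promoters. The AP-1 site TGANTCA matched in Igf1 (7.81% of promoters), the interferon-response core GAAANNGAAA in Vegfa (3.44%) and the hypoxia core ACGTG in the Vegfa window of a downstream start (19.6%). A match is a string of letters and not a shown site of binding. The Csf2 window lies wholly upstream of the gene model used for the TPM sums, so the bases next to that model's 5′ end were not searched. The Igf1 and Pdgfa windows lie inside their gene models, so the bases before the 5′ ends of those models were not searched either. For these genes a missing match says nothing of the bases left out.

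**Figure D1:**
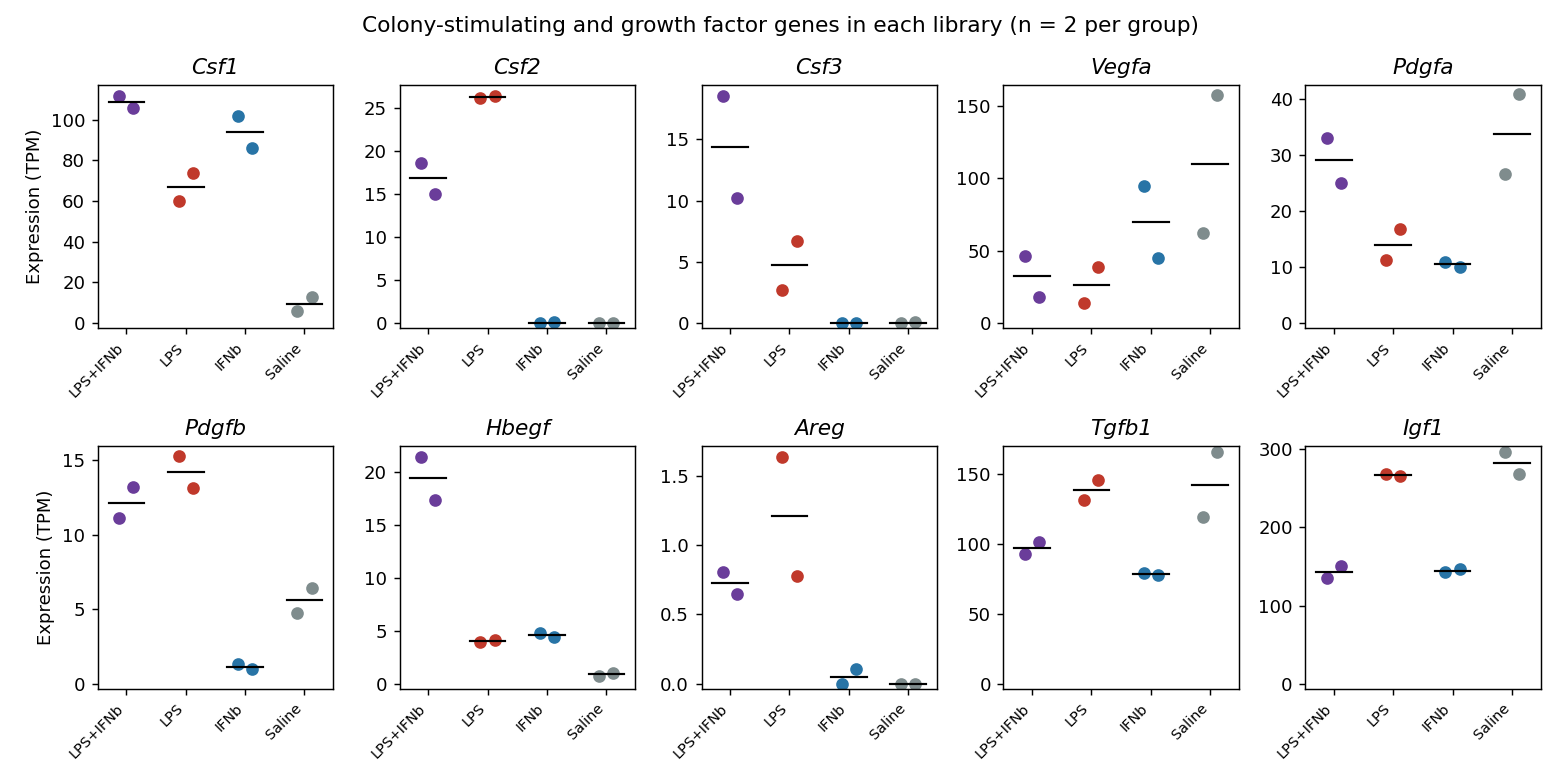
TPM of the 10 genes in each library, on axes that differ between panels (groups along the x axis, points are libraries, bars are means of 2 libraries). Csf2 was at 15.01 to 26.4 TPM in the 4 libraries that met LPS and at most at 0.0870 TPM elsewhere, Hbegf was highest in LPS+IFNb, and the Vegfa points lie far apart within every group.

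Against Saline, LPS gave higher Csf1, Csf2, Csf3, Pdgfb and Hbegf and lower Vegfa and Pdgfa, so 7 of 9 tested members passed (limma on log2(TPM + 1), adjusted p under 0.05), 5 higher and 2 lower. Of all 13009 genes tested 54.1% passed, 12.8% higher and 41.3% lower. IFNb gave higher Csf1 and Hbegf and lower Pdgfa, Pdgfb, Tgfb1 and Igf1, which is 6 of 9 members against 51.6% of all genes (13.0% higher, 38.6% lower). LPS+IFNb gave higher Csf1, Csf2, Csf3, Pdgfb and Hbegf and lower Tgfb1 and Igf1, which is 7 of 9 members against 69.4% of all genes (15.2% higher, 54.1% lower). Most genes passed in these comparisons, more of them lower than higher. Members that passed with LPS or LPS+IFNb were more often higher, Csf2 and Csf3 among them. These 3 comparisons share the Saline libraries. Csf2 and Csf3 reached the level for testing (1 TPM in 2 libraries) only through the LPS and LPS+IFNb groups, so they had to differ from Saline and IFNb, and their calls in those comparisons are counted above but support nothing. Areg did not reach that level.

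TPM is relative within a library, and genes induced to high levels lower the TPM of the rest. Scaling by the median ratio of expressed genes moved the median log2 difference of all genes by 0.40 for LPS against Saline, 0.34 for IFNb against Saline and 0.64 for LPS+IFNb against Saline. Under that scaling 2723 genes were higher and 2249 lower with LPS, 2436 higher and 1930 lower with IFNb, and 3600 higher and 3246 lower with LPS+IFNb. The 10 members that were then testable gave 8 higher and 1 lower with LPS, 2 higher and 4 lower with IFNb, and 6 higher and 0 lower with LPS+IFNb. Csf2, Csf3 and Areg were testable here only through libraries that met LPS. Their calls against Saline or IFNb, here and in the counts below, therefore support nothing. Values below marked as rescaled use that scaling.

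IFNb before LPS was set beside LPS alone in LPS+IFNb against LPS. No group had saline before LPS, so IFNb and the earlier treatment as such cannot be told apart in this comparison. Csf3, Pdgfa and Hbegf were higher and Csf2, Tgfb1 and Igf1 lower, which is 6 of 9 members against 34.8% of all genes (10.8% higher, 24.1% lower). Rescaled, which moved the all-gene median by 0.21, 4 members were higher (Csf1, Csf3, Pdgfa and Hbegf) and 1 lower (Igf1), among 1999 genes higher and 1373 lower. The median difference of the members was 0.31 and that of all genes -0.22. The count rested on single libraries: 2 members passed without LPS replicate 1, 3 without LPS+IFNb replicate 1 or replicate 2, and 4 to 7 with any other single library left out.

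Against IFNb, LPS+IFNb gave higher Csf2, Csf3, Pdgfa, Pdgfb and Hbegf and no member passed as lower (5 of 9 members, 39.3% of all genes, 8.76% higher and 30.5% lower). Rescaled, which moved the all-gene median by 0.29, 7 members were higher and 0 lower, with 1807 genes higher and 1425 lower. LPS against IFNb gave higher Csf2, Csf3, Pdgfb, Tgfb1 and Igf1 (5 of 9 members, 38.7% of all genes, 16.6% higher and 22.1% lower). The interaction is the difference LPS+IFNb minus IFNb less the difference LPS minus Saline, and 3 of 9 members passed it (7.96% of all genes): Pdgfa and Pdgfb with a positive term (3.51% of all genes) and Csf1 with a negative term (4.45%). Only 1 member passed the interaction without LPS replicate 2, either IFNb library or either LPS+IFNb library.

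Csf1 (ENSMUSG00000014599, chromosome 3, 107741048 to 107760469, GRCm38) encodes macrophage colony-stimulating factor, the survival factor of macrophages. It was at 112 and 106 TPM in LPS+IFNb, 60.2 and 73.8 TPM in LPS, 102 and 86.0 TPM in IFNb, and 6.10 and 12.8 TPM in Saline. All 6 stimulated libraries were above both Saline libraries, and LPS+IFNb, IFNb and LPS followed in that order of level. The difference in log2(TPM + 1) from Saline was 3.47 ± 0.29 for LPS+IFNb (SE, adjusted p = 0.000105), 2.77 ± 0.29 for LPS (adjusted p = 0.000511) and 3.26 ± 0.29 for IFNb (adjusted p = 0.000288). Neighbours in the order did not pass: LPS+IFNb minus IFNb was 0.22 (adjusted p = 0.59) and LPS minus IFNb was -0.48 (adjusted p = 0.251, but 0.0357 without Saline replicate 1 and 0.0359 without Saline replicate 2). LPS+IFNb minus LPS was 0.70 (adjusted p = 0.113), and it passed when rescaled (0.97, adjusted p = 0.0321), with only the groups compared (adjusted p = 0.0236) or without either Saline library (adjusted p = 0.0126 without replicate 1 and 0.0125 without replicate 2).

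For Csf1, LPS+IFNb minus IFNb (0.22) was smaller than LPS minus Saline (2.77), an interaction of -2.56 ± 0.42 (adjusted p = 0.0159). The 2 Saline libraries differed by 0.96 on the log2 scale, and this interaction was lost without LPS replicate 2 (-2.41, adjusted p = 0.0641), IFNb replicate 1 (-2.44, 0.0713), IFNb replicate 2 (-2.68, 0.0527), LPS+IFNb replicate 1 (-2.60, 0.0608) or LPS+IFNb replicate 2 (-2.52, 0.0656), and with no filter (-2.56, 0.052). Of its transcripts, Csf1-202 (3058 bases) held the largest share of the gene's TPM in every group, at 43.0% in LPS+IFNb, 44.5% in LPS, 43.6% in IFNb and 47.0% in Saline. The full-length Csf1-201 (4176 bases) was at 19.3% in LPS+IFNb, 19.9% in LPS, 26.6% in IFNb and 11.2% in Saline.

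Csf2 (ENSMUSG00000018916, chromosome 11, 54247271 to 54249667) encodes GM-CSF, which drives granulocyte and macrophage production and activation. It was at 18.7 and 15.01 TPM in LPS+IFNb, 26.2 and 26.4 TPM in LPS, listed at 0 and at 0.0870 TPM in IFNb, and listed at 0 in both Saline libraries. In these libraries the gene was at more than a trace only after LPS, and no fold is given against Saline. It was tested only because of its level in these LPS groups, so no p against Saline is given.

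IFNb before LPS went with less Csf2: LPS+IFNb was 0.64 of the mean LPS level, a difference of -0.62 ± 0.15 (adjusted p = 0.0216), and the libraries did not overlap. The call was lost when rescaled (-0.36, adjusted p = 0.142), with upper-quartile scaling (-0.49, 0.0637), a pseudocount of 0.1 (-0.65, 0.207) or no filter (-0.62, 0.056), without LPS replicate 1 (-0.63, 0.098) or LPS replicate 2 (-0.62, 0.102), and without LPS+IFNb replicate 2 (-0.47, 0.115). Lymphoid and mast cells also make GM-CSF. The list of 11 T, NK and innate lymphoid markers summed to 248 and 292 TPM in LPS+IFNb, 288 and 235 TPM in LPS, 418 and 474 TPM in IFNb, and 535 and 443 TPM in Saline, mostly from Il7r, with Cd3e at 1.19 to 2.73 TPM. The 8 mast cell markers summed to 97.7 and 64.5 TPM in LPS+IFNb, 59.9 and 89.3 TPM in LPS, 72.3 and 56.8 TPM in IFNb, and 58.7 and 65.7 TPM in Saline. The part of these cells was not tested, and in bulk libraries fewer cells of a type and less RNA per cell cannot be told apart.

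Csf3 (ENSMUSG00000038067, chromosome 11, 98701263 to 98703629) encodes G-CSF, which drives neutrophil production. It was at 18.5 and 10.2 TPM in LPS+IFNb, 2.70 and 6.71 TPM in LPS, 0.0394 TPM and listed at 0 in IFNb, and listed at 0 and at 0.0722 TPM in Saline. As with Csf2, more than a trace was found only with LPS, but here the libraries that had IFNb first were the higher. Like Csf2 it was tested only because of its level in the LPS groups, so its differences from Saline, 3.83 for LPS+IFNb, 2.37 for LPS and -0.02 for IFNb, are given with no p. With a pseudocount of 0.1 they were 6.72 for LPS+IFNb and 5.06 for LPS. LPS+IFNb minus LPS was 1.47 ± 0.39 (adjusted p = 0.0295), a ratio of 3.05 of mean TPM. This call was lost without LPS replicate 1 (0.94, adjusted p = 0.12), LPS+IFNb replicate 1 (1.07, 0.15), IFNb replicate 1 (1.47, 0.052) or IFNb replicate 2 (1.47, 0.0521), and with a pseudocount of 0.1 (1.66, 0.0703), no filter (1.47, 0.0826) or only the groups compared (1.47, 0.0819).

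Hbegf (ENSMUSG00000024486, chromosome 18, 36504927 to 36515805) encodes heparin-binding EGF-like growth factor, a ligand of the EGF receptor for epithelial repair and smooth muscle growth. It was at 21.5 and 17.4 TPM in LPS+IFNb, 3.93 and 4.13 TPM in LPS, 4.85 and 4.44 TPM in IFNb, and 0.769 and 1.03 TPM in Saline. The LPS+IFNb libraries stood above all others, and LPS and IFNb stood close together above Saline. Mean TPM was 21.7 times that of Saline in LPS+IFNb, 4.49 times in LPS and 5.17 times in IFNb.

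The Hbegf differences were 3.43 ± 0.16 for LPS+IFNb against Saline (adjusted p = 8.77e-06), 1.41 ± 0.16 for LPS (adjusted p = 0.000591) and 1.57 ± 0.16 for IFNb (adjusted p = 0.000421). LPS+IFNb was also higher than LPS by 2.02 ± 0.16 (adjusted p = 0.000365) and than IFNb by 1.85 ± 0.16 (adjusted p = 0.000462). LPS minus IFNb was -0.17 ± 0.16 (adjusted p = 0.455). On this log scale the joint rise exceeded the sum of the single rises by an interaction of 0.44 ± 0.22, which did not pass (adjusted p = 0.293) and was -0.02 with a pseudocount of 0.1. The 5 Hbegf calls held in every alternative fit.

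Areg (ENSMUSG00000029378, chromosome 5, 91139599 to 91148432) encodes amphiregulin, an EGF receptor ligand of tissue repair. It was at 0.809 and 0.647 TPM in LPS+IFNb, 1.63 and 0.780 TPM in LPS, listed at 0 and at 0.106 TPM in IFNb, and listed at 0 in both Saline libraries. Only 1 library reached 1 TPM, so it was not tested with the others. With no filter on low values Areg entered the fit, but it was at more than a trace only in libraries that met LPS, so no p is given. Its low values were above those of IFNb and Saline in every library that met LPS.

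Pdgfa (ENSMUSG00000025856, chromosome 5, 138976014 to 138997370) encodes the A chain of platelet-derived growth factor. It was at 33.0 and 25.1 TPM in LPS+IFNb, 11.3 and 16.8 TPM in LPS, 10.95 and 10.03 TPM in IFNb, and 26.7 and 41.0 TPM in Saline. Each agent alone gave lower libraries than Saline, and the LPS+IFNb libraries lay within or just below the Saline range. The difference from Saline was -1.21 ± 0.26 for LPS (adjusted p = 0.00886, and -0.76 when rescaled, 0.0453) and -1.57 ± 0.26 for IFNb (adjusted p = 0.00347). For LPS+IFNb it was -0.19 ± 0.26 (adjusted p = 0.541), and its sign turned when rescaled (0.52, adjusted p = 0.114).

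LPS+IFNb exceeded LPS in Pdgfa by 1.01 ± 0.26 (adjusted p = 0.0267) and IFNb by 1.38 ± 0.26 (adjusted p = 0.00882). The interaction was 2.58 ± 0.37 (adjusted p = 0.00995) and passed in every alternative fit: Pdgfa was lower in LPS than in Saline and higher in LPS+IFNb than in IFNb. The gain over LPS was lost without LPS replicate 1 (0.74, adjusted p = 0.128), LPS+IFNb replicate 1 (0.82, 0.134) or LPS+IFNb replicate 2 (1.2, 0.0513) and with no filter (1.01, 0.0708), and the gain over IFNb without IFNb replicate 2 (1.32, 0.0525) or LPS+IFNb replicate 1 (1.18, 0.0542). Noncoding transcripts made up 10.2% and 2.06% of Pdgfa TPM in LPS+IFNb, 10.3% and 19.1% in LPS, 7.10% and 31.3% in IFNb, and 13.0% and 30.6% in Saline.

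Pdgfb (ENSMUSG00000000489, chromosome 15, 79995874 to 80014977) encodes the B chain, which acts on pericytes and fibroblasts. It was at 11.1 and 13.2 TPM in LPS+IFNb, 15.3 and 13.2 TPM in LPS, 1.31 and 0.995 TPM in IFNb, and 4.78 and 6.44 TPM in Saline. The agents moved it in opposite directions: the LPS libraries were above Saline and the IFNb libraries below it, with no overlap. The difference from Saline was 1.00 ± 0.18 for LPS+IFNb (adjusted p = 0.00255, and 1.65 when rescaled, 0.000203), 1.21 ± 0.18 for LPS (adjusted p = 0.002) and -1.61 ± 0.18 for IFNb (adjusted p = 0.000727). LPS minus IFNb was 2.82 ± 0.18 on the log2(TPM + 1) scale (adjusted p = 6.08e-05), and the mean TPM of LPS was 12.3 times that of IFNb.

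LPS+IFNb exceeded IFNb in Pdgfb by 2.61 ± 0.18 (adjusted p = 0.00022) and overlapped LPS alone (LPS+IFNb minus LPS -0.21, adjusted p = 0.412, and 0.04 when rescaled). The interaction was 1.40 ± 0.26 (adjusted p = 0.0246). It was lost with LPS replicate 1 (1.5, adjusted p = 0.0651), LPS replicate 2 (1.30, 0.0915), IFNb replicate 1 (1.51, 0.0643), IFNb replicate 2 (1.29, 0.092), LPS+IFNb replicate 1 (1.51, 0.0602) or LPS+IFNb replicate 2 (1.29, 0.0904) left out, with no filter (1.40, 0.0609) and with the replicate number as a block (1.40, 0.0506). Pdgfa and Pdgfb thus had different patterns: IFNb alone went with less of each chain, whereas LPS alone went with less Pdgfa and more Pdgfb.

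Vegfa (ENSMUSG00000023951, chromosome 17, 46016993 to 46032369), the angiogenic factor, was at 46.6 and 18.04 TPM in LPS+IFNb, 13.8 and 38.7 TPM in LPS, 94.7 and 44.7 TPM in IFNb, and 62.2 and 157 TPM in Saline. Both LPS groups lay below both Saline libraries, and IFNb overlapped Saline. LPS minus Saline was -2.05 ± 0.72 (adjusted p = 0.0493), LPS+IFNb minus Saline -1.73 ± 0.72 (adjusted p = 0.0685) and IFNb minus Saline -0.60 ± 0.72 (adjusted p = 0.52). The LPS call was lost without LPS replicate 1 (-1.33, adjusted p = 0.23), Saline replicate 2 (-1.38, 0.219), either IFNb library (-2.05, 0.059) or either LPS+IFNb library (-2.05, 0.0507), when rescaled (-1.59, 0.114), and with upper-quartile scaling (-1.86, 0.0751), a pseudocount of 0.1 (-2.09, 0.0518), no filter (-2.05, 0.121), only the groups compared (-2.05, 0.0699) or the replicate number as a block (-2.05, 0.0727). LPS+IFNb minus Saline passed without Saline replicate 1 (-2.40, adjusted p = 0.0457), with protein-coding nuclear genes only (-1.80, 0.0469) and with protein-coding transcripts only (-1.69, 0.0421).

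The 2 libraries of a group differed in Vegfa by 1.32 on the log2 scale in LPS+IFNb, 1.43 in LPS, 1.07 in IFNb and 1.33 in Saline. The 95th percentile of all genes was 0.82 in LPS+IFNb, 0.84 in LPS, 0.81 in IFNb and 1.07 in Saline, so Vegfa was among the most variable genes between libraries of a group. Summed over 15 hypoxia-inducible factor targets, the libraries held 4290 and 3260 TPM in LPS+IFNb, 2470 and 3860 TPM in LPS, 4190 and 3250 TPM in IFNb, and 2980 and 3580 TPM in Saline. The 12 mesothelial and fibroblast markers summed to 95.7 and 44.1 TPM in LPS+IFNb, 48.8 and 117 TPM in LPS, 116 and 58.8 TPM in IFNb, and 43.5 and 131 TPM in Saline. The 8 large peritoneal macrophage markers, mostly Fn1, summed to 291 and 188 TPM in LPS+IFNb, 489 and 859 TPM in LPS, 452 and 259 TPM in IFNb, and 182 and 605 TPM in Saline. In every group the library with more Vegfa was also the higher in these 3 sums, and in the sum of the 9 neutrophil markers (221 and 142 TPM in LPS+IFNb, 193 and 286 in LPS, 232 and 154 in IFNb, 213 and 281 in Saline). The mast cell, endothelial, and platelet and megakaryocyte sums followed Vegfa in the same way in all 4 groups, whereas the macrophage, eosinophil, B cell, T and NK cell and dendritic cell sums did not. Of the neutrophil markers Retnlg was at 66.1 and 27.3 TPM in LPS+IFNb, 29.7 and 72.4 TPM in LPS, 107 and 51.7 TPM in IFNb, and 73.9 and 128 TPM in Saline. The part of these cells and of hypoxia in the Vegfa values was not tested.

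**Figure D2:**
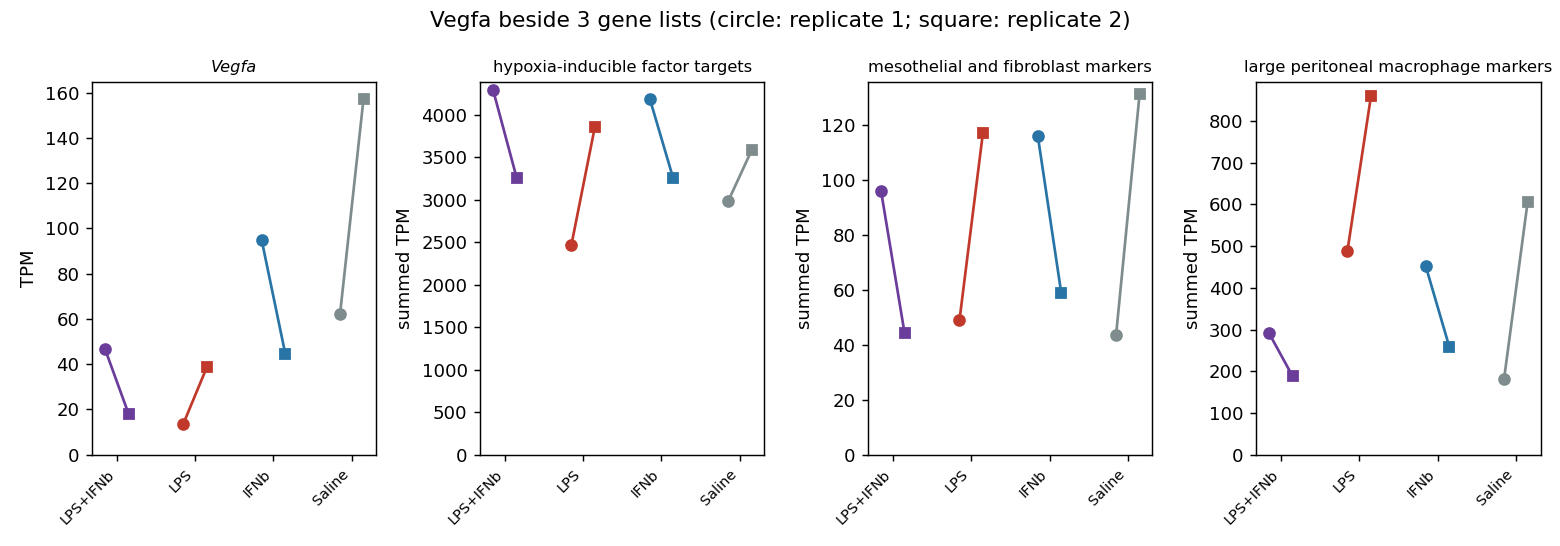
Vegfa (TPM) and the summed TPM of 3 gene lists in the 8 libraries (circles are replicate 1 and squares replicate 2 of a group, and a line joins the 2 libraries of a group). In each group the line slopes the same way in all 4 panels, and Vegfa in Saline spans 62.2 to 157 TPM.

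The 15 hypoxia-inducible factor targets did not move as a block. With LPS+IFNb 6 were higher and 2 lower than Saline, with LPS 3 higher and 1 lower, and with IFNb 2 higher and 1 lower (rescaled 7 and 2, 5 and 1, and 4 and 1). Of all genes tested 15.2% were higher and 54.1% lower with LPS+IFNb, 12.8% and 41.3% with LPS, and 13.0% and 38.6% with IFNb. The hexokinase gene Hk2 rose with LPS+IFNb (2.17) and LPS (1.94), and the glycolytic regulator Pfkfb3 rose with LPS+IFNb (2.32), LPS (1.36) and IFNb (1.76). Ankrd37 fell with LPS+IFNb (-3.54) and LPS (-3.82), and Ndrg1 fell with IFNb (-1.79). Not every target that passed is named. Mean P4ha1 was 163 TPM in LPS+IFNb, 69.7 in LPS, 210 in IFNb and 53.1 in Saline. Mean Hilpda was 373 TPM in LPS+IFNb, 157 in LPS, 88.3 in IFNb and 128 in Saline. Mean Egln3 was 3.96 TPM in LPS+IFNb, 11.9 in LPS, 7.63 in IFNb and 34.9 in Saline.

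Tgfb1 (ENSMUSG00000002603, chromosome 7, 25687002 to 25705077), the latent anti-inflammatory factor, was at 92.8 and 102 TPM in LPS+IFNb, 132 and 146 TPM in LPS, 79.4 and 77.9 TPM in IFNb, and 119 and 166 TPM in Saline. LPS overlapped Saline, and both groups that met IFNb lay below both. IFNb minus Saline was -0.83 ± 0.16 (adjusted p = 0.00549), and LPS minus IFNb was 0.81 ± 0.16 (adjusted p = 0.00728). LPS minus Saline was -0.02 ± 0.16 (adjusted p = 0.924) and turned to 0.44 when rescaled (adjusted p = 0.0338).

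LPS+IFNb minus Saline was -0.53 ± 0.16 for Tgfb1 (adjusted p = 0.0209), but 0.20 when rescaled (adjusted p = 0.239), and the call was lost with upper-quartile scaling (-0.21, 0.231) or only the groups compared (-0.53, 0.0612) and without Saline replicate 2 (-0.29, 0.0564) or LPS+IFNb replicate 1 (-0.47, 0.0993). LPS+IFNb minus LPS was -0.51 ± 0.16 (adjusted p = 0.0458), and it was lost when rescaled (-0.24, 0.222), with upper-quartile scaling (-0.38, 0.0854) or no filter (-0.51, 0.1), and without LPS replicate 1 (-0.59, 0.0988), LPS replicate 2 (-0.44, 0.183), IFNb replicate 1 or 2 (-0.51, 0.077), LPS+IFNb replicate 1 (-0.45, 0.182) or LPS+IFNb replicate 2 (-0.58, 0.102). LPS+IFNb minus IFNb was 0.30 (adjusted p = 0.173) and passed when rescaled (0.64, 0.0124), with upper-quartile scaling (0.51, 0.0362), with only the groups compared (0.30, 0.0488) or without either Saline library (0.30, 0.0405). The fall with IFNb passed in every alternative fit but was -0.44 when rescaled (adjusted p = 0.0366), and the excess of LPS over IFNb also passed in each.

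Igf1 (ENSMUSG00000020053, chromosome 10, 87858265 to 87937042) was the member with the highest level in every group. It was at 136 and 150.2 TPM in LPS+IFNb, 267 and 265 TPM in LPS, 142 and 146 TPM in IFNb, and 296 and 267 TPM in Saline. The groups fell into separate levels by IFNb: LPS+IFNb averaged 143 ± 10.2 TPM and IFNb 144 ± 2.67 TPM, while LPS averaged 266 ± 1.6 TPM and Saline 282 ± 20.3 TPM (SD, n = 2 each), and LPS replicate 1 lay between the Saline libraries. Igf1 fell by 0.96 ± 0.09 with IFNb (adjusted p = 0.000286), and LPS+IFNb minus LPS was -0.89 ± 0.09 (adjusted p = 0.000816). LPS+IFNb minus IFNb was -0.01 (adjusted p = 0.913, and 0.33 when rescaled, 0.0789).

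LPS minus Saline was -0.08 for Igf1 (adjusted p = 0.477) and turned to 0.38 when rescaled (adjusted p = 0.0351). LPS+IFNb minus Saline was -0.97 ± 0.09 (adjusted p = 0.000124) and no longer passed when rescaled (-0.24, adjusted p = 0.116). The fall with IFNb alone held when rescaled (-0.57, adjusted p = 0.00861).

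Igf1 transcripts did not all follow the gene. The 3′ untranslated region of Igf1-202 holds 18 ATTTA in 6308 bases, and 48 of 313 tested genes of like length had at least as many. Igf1-202 was at 8.08 and 9.03 TPM in LPS+IFNb, 20.5 and 17.9 TPM in LPS, 10.6 and 9.16 TPM in IFNb, and 48.1 and 47.0 TPM in Saline. The LPS libraries were thus well below Saline for this transcript although the summed gene was level between them. Its share of the gene's TPM was 5.98% in LPS+IFNb, 7.20% in LPS, 6.86% in IFNb and 16.9% in Saline. The short Igf1-206 (651 bases) was at 70.2 and 84.4 TPM in LPS+IFNb, 150 and 167 TPM in LPS, 75.2 and 89.6 TPM in IFNb, and 158 and 133 TPM in Saline. Shares of transcripts come from reads divided among overlapping isoforms and are given as a description, with no test.

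**Figure D3:**
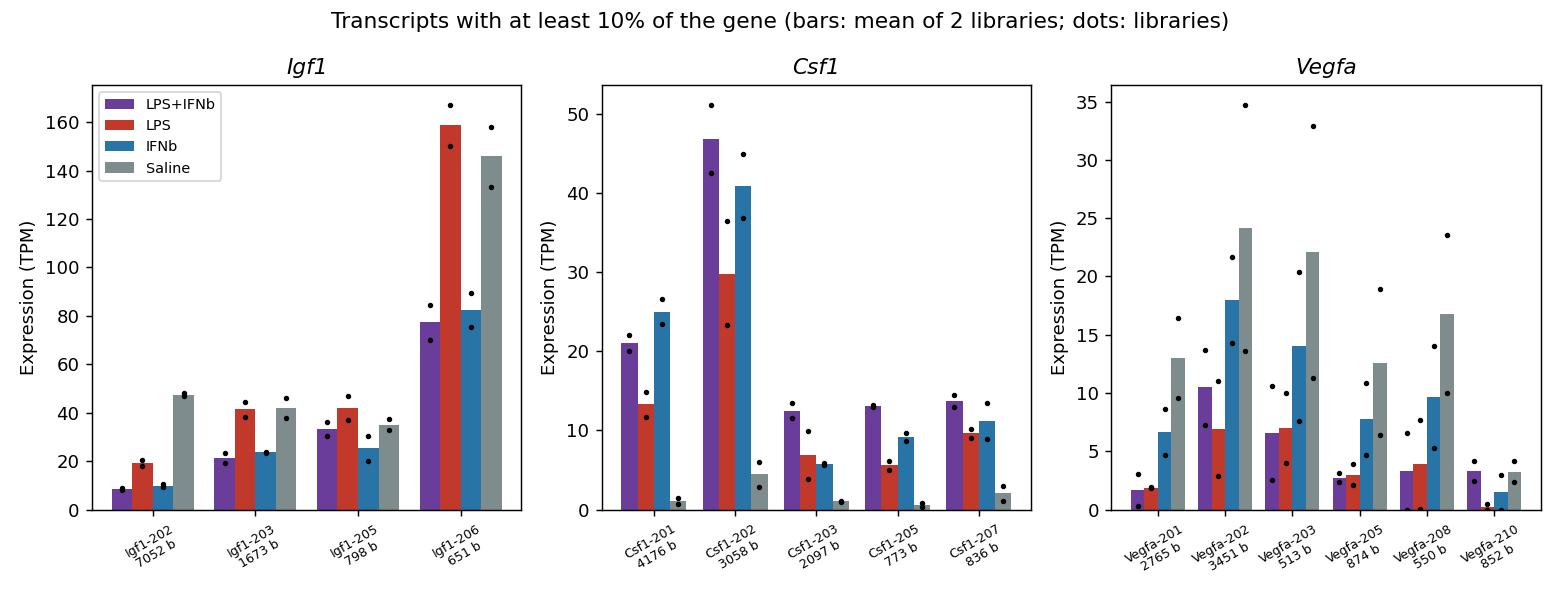
TPM of the transcripts of Igf1, Csf1 and Vegfa that held at least 10% of the gene in some group (bars are means of 2 libraries, dots are libraries, lengths in bases below each name). Igf1-202 is at 47.5 TPM in Saline and at most at 19.2 TPM in the other groups, while the shorter Igf1-206 is as high in LPS as in Saline.

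The receptors of these factors were measured in the same cells, 17 of 21 reaching the level for testing, Pdgfrb only through LPS and Flt4 only through LPS+IFNb and IFNb. With LPS+IFNb 5 were higher and 6 lower than Saline, with LPS 2 higher and 5 lower, and with IFNb 5 higher and 4 lower (rescaled 9 and 3, 4 and 3, and 6 and 3). Their median difference was -0.23 with LPS+IFNb, -0.12 with LPS and -0.06 with IFNb, where that of all genes was -0.62, -0.38 and -0.37. Shares of all genes were 15.2% higher and 54.1% lower with LPS+IFNb, 12.8% and 41.3% with LPS, and 13.0% and 38.6% with IFNb.

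The VEGF receptor genes Kdr and Flt1 rose with IFNb. Kdr, which encodes the main VEGF-A receptor, was at 10.04 and 18.8 TPM in LPS+IFNb, 1.90 and 1.30 TPM in LPS, 29.3 and 45.9 TPM in IFNb, and 4.05 and 3.53 TPM in Saline. It rose by 2.98 ± 0.33 with IFNb (adjusted p = 0.00065) and 1.63 ± 0.33 with LPS+IFNb (adjusted p = 0.00396), with LPS at -0.89 (adjusted p = 0.057). Flt1, which encodes another VEGF-A receptor, rose by 2.83 with IFNb (adjusted p = 0.00183) and 2.45 with LPS+IFNb (adjusted p = 0.00163). Flt4, which encodes the VEGF-C receptor, was at 1.89 and 2.96 TPM in LPS+IFNb, 0.0810 and 0.128 TPM in LPS, 4.97 and 6.58 TPM in IFNb, and 0.0481 and 0.121 TPM in Saline, and was tested only through the groups where it is high, so no p is given. The co-receptor gene Nrp2 rose with LPS+IFNb (1.2, and 1.92 when rescaled), LPS (1.77) and IFNb (0.75, and 1.13 when rescaled). Nrp1 passed in each comparison with Saline, at -0.72 with LPS+IFNb, -1.27 with LPS and 0.38 with IFNb, and was 0.00, -0.82 and 0.77 in that order when rescaled, no longer passing with LPS+IFNb.

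Endothelial cells also express Kdr, Flt1 and Flt4. The 7 endothelial markers summed to 27.9 and 23.5 TPM in LPS+IFNb, 36.2 and 42.0 TPM in LPS, 37.4 and 29.3 TPM in IFNb, and 29.6 and 56.6 TPM in Saline. Emcn was at most 0.0771 TPM and Tek at most 0.0358 TPM. Cdh5 was at 2.29 and 1.42 TPM in LPS+IFNb, 0.239 and 0.456 TPM in LPS, 1.85 and 1.16 TPM in IFNb, and 0.0546 and 0.220 TPM in Saline, and so was higher in the groups with more Kdr. Esam was also higher in both groups by mean, with overlapping libraries, whereas Vwf, Pecam1 and Tie1 were not. Vwf, with most of the sum, averaged 13.4 TPM in LPS+IFNb, 31.0 TPM in LPS, 23.4 TPM in IFNb and 34.4 TPM in Saline. The part of endothelial cells was not tested.

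Csf1r was at 137 and 149.8 TPM in LPS+IFNb, 235 and 229 TPM in LPS, 185 and 202 TPM in IFNb, and 310 and 324 TPM in Saline, the reverse order to its ligand Csf1 at the extremes. It fell by 1.14 with LPS+IFNb (adjusted p = 6.08e-05), by 0.45 with LPS (adjusted p = 0.00468) and by 0.71 with IFNb (adjusted p = 0.000871). When rescaled these differences were -0.41 with LPS+IFNb (adjusted p = 0.00901), 0.01 with LPS (adjusted p = 0.916) and -0.32 with IFNb (adjusted p = 0.037). The GM-CSF receptor genes Csf2ra, Csf2rb and Csf2rb2 did not pass in any of the comparisons with Saline, with differences of -0.24 to 0.08.

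Csf3r was at 106 and 125 TPM in LPS+IFNb, 65.7 and 74.0 TPM in LPS, 103 and 114 TPM in IFNb, and 89.0 and 105 TPM in Saline, and LPS+IFNb minus LPS was 0.71 (adjusted p = 0.00709). Tgfbr1, which encodes the signalling receptor of TGF-beta, was at 41.3 and 65.1 TPM in LPS+IFNb, 85.9 and 66.0 TPM in LPS, 15.5 and 18.7 TPM in IFNb, and 111 and 93.5 TPM in Saline. It fell by 2.52 ± 0.24 with IFNb (adjusted p = 0.00037), with an interaction of 1.99 (adjusted p = 0.0191). Tgfbr2 fell by 1.12 with LPS+IFNb and by 1.21 with LPS, and was -0.41 and -0.76 in that order when rescaled, both still passing. Pdgfrb was low, at 0.622 and 0.732 TPM in LPS+IFNb, 2.36 and 2.46 TPM in LPS, 0.2495 and 0.119 TPM in IFNb, and 0.0742 and 0.236 TPM in Saline, and as it was tested only through LPS no p is given.

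**Figure D4:**
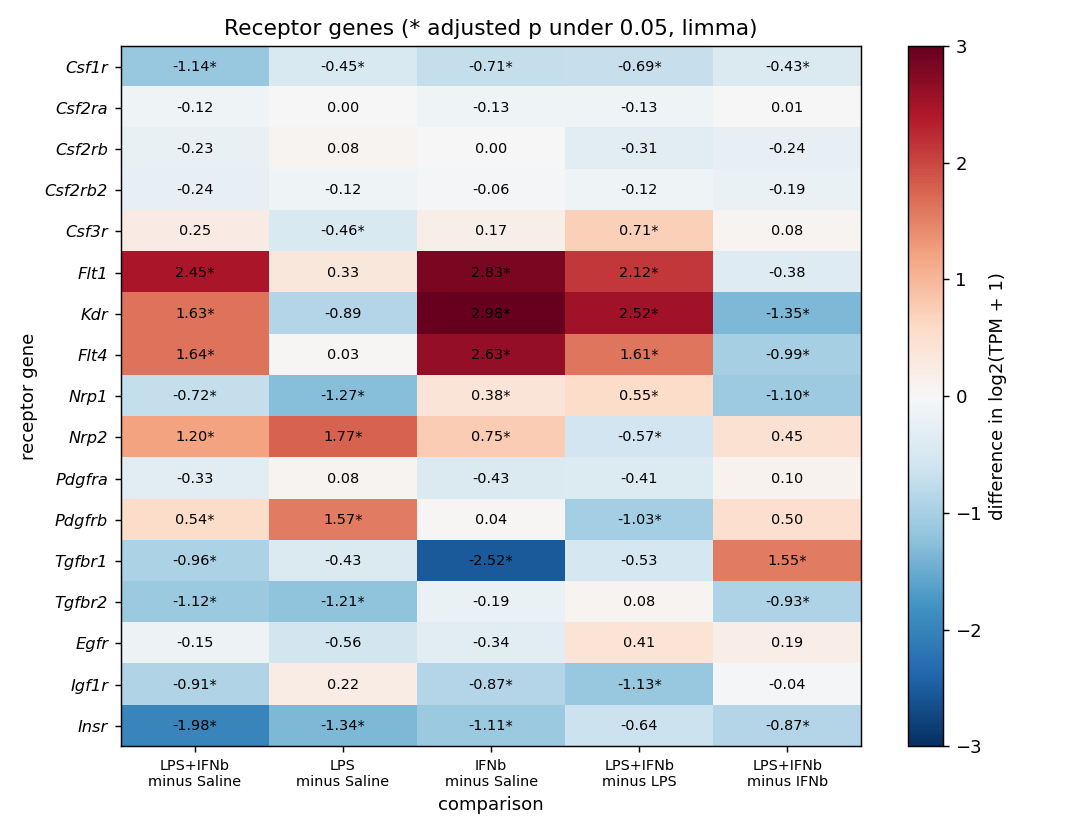
Differences in log2(TPM + 1) of the 17 tested receptor genes in 5 comparisons (columns), as a colour scale with the value printed and an asterisk where the adjusted p is under 0.05 (limma), which supports nothing for Pdgfrb and Flt4, tested only through the groups where they are high. Flt1, Kdr and Flt4 are the darkest red in IFNb minus Saline, and Tgfbr1 the darkest blue.

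Genes for release, activation and carrier proteins of these factors numbered 23, of which 16 were tested. With LPS+IFNb 5 were higher and 2 lower than Saline, with LPS 6 higher and 2 lower, and with IFNb 4 higher and 2 lower (rescaled 9 and 2, 9 and 1, and 5 and 0). Their median difference was 0.18 with LPS+IFNb, 0.63 with LPS and -0.10 with IFNb, where that of all genes was -0.62, -0.38 and -0.37. Among all genes 15.2% were higher and 54.1% lower with LPS+IFNb, 12.8% and 41.3% with LPS, and 13.0% and 38.6% with IFNb. Furin, which encodes the protease that cleaves the TGF-beta precursor, was at 243 and 312 TPM in LPS+IFNb, 84.1 and 98.0 TPM in LPS, 91.6 and 73.0 TPM in IFNb, and 21.7 and 52.9 TPM in Saline. It rose by 2.98 ± 0.38 with LPS+IFNb (adjusted p = 0.000537), 1.39 ± 0.38 with LPS (adjusted p = 0.0209) and 1.24 ± 0.38 with IFNb (adjusted p = 0.0325).

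Rhbdf2, which encodes iRhom2, the partner that brings the shedding protease ADAM17 to the surface, rose by 2.58 with LPS+IFNb (adjusted p = 0.000177), 2.59 with LPS (adjusted p = 0.000371) and 1.42 with IFNb (adjusted p = 0.00424). Adam17 itself did not pass (-0.09 with LPS+IFNb, 0.27 with LPS and -0.38 with IFNb). Thbs1, which encodes thrombospondin, an activator of latent TGF-beta, rose by 2.28 with LPS+IFNb, 1.42 with LPS and 2.16 with IFNb. Itgav and Itgb8 encode the subunits of an integrin that activates latent TGF-beta, and Itgav rose with LPS by 2.28 (adjusted p = 2.84e-05). Itgb8 was at 1.31 and 0.802 TPM in LPS+IFNb, 6.60 and 7.02 TPM in LPS, 0.552 and 0.197 TPM in IFNb, and 0.413 and 0.557 TPM in Saline, and it was tested only through LPS and LPS+IFNb replicate 1, so no p is given. Nrros, which encodes the protein that holds latent TGF-beta on myeloid cells, fell by 1.22 with LPS+IFNb and by 1.29 with LPS, and rose by 0.42 with IFNb (-0.49, -0.83 and 0.81 in that order when rescaled, all still passing).

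Of 18 other ligands of the same families, 6 were tested. With LPS+IFNb 1 was higher and 3 lower than Saline, with LPS 0 higher and 3 lower, and with IFNb 2 higher and 1 lower (rescaled 2 and 2, 0 and 1, and 2 and 1). Nrg1 reached the level for testing only through LPS+IFNb, and Tgfb3 only through Saline and IFNb. Any call of Nrg1 with LPS+IFNb, or of Tgfb3 with LPS or LPS+IFNb, therefore supports nothing. Over all genes 15.2% were higher and 54.1% lower with LPS+IFNb, 12.8% and 41.3% with LPS, and 13.0% and 38.6% with IFNb. Vegfb was at 5.62 and 5.59 TPM in LPS+IFNb, 11.1 and 13.8 TPM in LPS, 8.96 and 8.53 TPM in IFNb, and 20.4 and 26.5 TPM in Saline. It fell by 1.88 with LPS+IFNb (adjusted p = 0.00011, and by 1.21 when rescaled), by 1.32 with IFNb (adjusted p = 0.00102) and by 0.86 with LPS (adjusted p = 0.00481, but -0.42 and 0.0531 when rescaled). Pdgfc, which encodes a further PDGF receptor ligand, rose by 1.17 with IFNb (adjusted p = 0.00273) and fell by 1.17 with LPS (adjusted p = 0.00243), the opposite directions to Pdgfb.

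Genes that these factors are known to switch on were read from 2 lists. All 10 TGF-beta targets were tested: with LPS+IFNb 3 were higher and 5 lower than Saline, with LPS 3 higher and 5 lower, and with IFNb 3 higher and 2 lower (rescaled 4 and 2, 3 and 4, and 5 and 0). Smad6 reached the level for testing only through Saline and IFNb, so any call of it with LPS or LPS+IFNb supports nothing. The shares of all genes were 15.2% higher and 54.1% lower with LPS+IFNb, 12.8% and 41.3% with LPS, and 13.0% and 38.6% with IFNb. Smad7, the feedback inhibitor of the pathway, fell by 1.58 with LPS (adjusted p = 0.00131).

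STAT5 is the transcription factor that GM-CSF activates, and 6 of its targets were tested. With LPS+IFNb 5 were higher and 0 lower than Saline, with LPS 5 higher and 0 lower, and with IFNb 3 higher and 0 lower (rescaled 6, 5 and 6 higher, 0 lower in each). All genes gave 15.2% higher and 54.1% lower with LPS+IFNb, 12.8% and 41.3% with LPS, and 13.0% and 38.6% with IFNb. Cish, the feedback inhibitor of STAT5, was at 96.9 and 96.8 TPM in LPS+IFNb, 128 and 118 TPM in LPS, 2.80 and 1.43 TPM in IFNb, and 0.516 and 0.592 TPM in Saline. It was tested only through the stimulated groups, so any call of Cish against Saline is in these counts but supports nothing. Other cytokines also act through STAT5, and their part in the Cish values was not tested.

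Over the 8 libraries, the genes with the most similar pattern were taken from 7069 candidates by Pearson r of log2(TPM + 1). The libraries share 4 groups, so these values describe likeness across groups and carry no p. For Csf1 they were Vcan (0.9965), Igsf8 (0.9955) and Helz2 (0.9925), for Csf2 Nfkbia (0.9985), Cxcl2 (0.9982) and Cxcl1 (0.9974), and for Csf3 Smim3 (0.9964), Il4ra (0.984) and Mt1 (0.9817). For Pdgfa they were Phf23 (0.9432), Cfl2 (0.9342) and Wsb1 (0.9235), and for Pdgfb Dirc2 (0.9936), Grk3 (0.9936) and P2ry2 (0.9929). For Hbegf they were Txn1 (0.9867), Rgcc (0.9813) and Seh1l (0.9812). For Tgfb1 they were Bcl2l2 (0.9903), Brd1 (0.989) and Plxnd1 (0.9846), and for Igf1 Slc29a1 (0.9957), Hspa9 (0.9917) and Phf10 (0.9904). For Vegfa they were Praf2 (0.9844), Mxi1 (0.9692) and Retnlg (0.9617), and here the likeness includes the differences between libraries of a group given above.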

How the data were processed

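The authors deposited 1 table of TPM per library for 88198 Ensembl transcripts. The submitters' processing notes name kallisto and mm10, with the version, options and transcript set not given in the sources used here. TPM holds no depth, so low values are less precise by an unknown amount, and a gene at 0 is called listed at 0. Transcripts were matched to GENCODE M21 (GRCm38), which held 86119 of them. The other 2079 took 1.01% to 1.95% of TPM per library and were dropped. Values were summed per gene. Testing required 1 TPM or more in 2 or more libraries, which 13009 genes met, 9 of the 10 members among them. A model of 4 group means was fitted to log2(TPM + 1) of all 8 libraries with limma 3.58.1 in R 4.3.3 (limma-trend, 4 residual and 2.54 prior degrees of freedom), with two-sided p-values adjusted by Benjamini-Hochberg over all genes tested. Fold changes on this scale understate the change of low genes, and a ratio of TPM is a ratio of group means.

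Groups and replicate numbers came from the labels. The procedure was tested on simulated data. Members, the 17 gene lists and tests were chosen with earlier results of these data known. The rule was to name up to 4 genes a direction of each list in order of adjusted p, but some lists name fewer. The 3 most similar genes were sought for members with a group mean of at least 5 TPM, among genes with a mean log2 of at least 3. Levels of further genes named for a marker or pathway were picked after their values were seen. Alternatives were median-ratio and upper-quartile scaling, protein-coding nuclear genes or protein-coding transcripts only, a pseudocount of 0.1, no filter or at least 5 TPM, an adjusted p under 0.01, a change of at least 2-fold, only the groups compared, the replicate number as a block, and each library left out in turn. Leaving a group with 1 library assumes that it varies like the others. The values of 1 gene that the naming rule covers are not reported here.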

Additional observations from a re-analysis of the deposited data

Results flagged for a closer look

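For 3 members LPS+IFNb minus IFNb differed from LPS minus Saline by the interaction term of the model. For Pdgfa the term was 2.58, with LPS+IFNb minus IFNb at 1.38 and LPS minus Saline at -1.21. For Csf1 it was -2.56, with LPS+IFNb minus IFNb at 0.22 and LPS minus Saline at 2.77. For Pdgfb it was 1.40, with LPS+IFNb minus IFNb at 2.61 and LPS minus Saline at 1.21. IFNb had been given 8 h before the LPS+IFNb libraries and 4 h before the IFNb libraries, and this cannot be told apart from the interaction. Groups of 2 libraries are too small to test for a library that stands apart.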

How the results depend on the processing

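Of 39 member changes past the threshold, 29 passed in every alternative fit and 10 were lost in at least 1, with the libraries concerned named beside each gene. The 29 include the calls of Csf2 and Csf3 against Saline and IFNb. The level for testing fixed those calls in advance, so they add no support. Over 1062 alternative values, 962 kept direction and side of the threshold, 60 lost the threshold, 14 gained it and 26 changed sign. The cause of these changes was not tested.

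Changes of sign were mostly of small differences that had not passed. With single libraries left out, IFNb minus Saline ranged over -0.07 to 0.03 for Csf3 and -1.26 to 0.07 for Vegfa, LPS+IFNb minus LPS over -0.40 to 1.03 for Vegfa, LPS+IFNb minus Saline over -0.49 to 0.11 for Pdgfa, LPS minus Saline over -0.26 to 0.22 for Tgfb1, LPS+IFNb minus IFNb over -0.09 to 0.06 for Igf1 and the interaction over -0.01 to 0.14 for Igf1. Under median-ratio and upper-quartile scaling, LPS+IFNb minus Saline was 0.52 and 0.12 for Pdgfa, LPS minus Saline was 0.44 and 0.17 for Tgfb1 and 0.38 and 0.11 for Igf1, and LPS+IFNb minus IFNb was 0.33 and 0.19 for Igf1. Median-ratio scaling also gave 0.04 for Pdgfb in LPS+IFNb minus LPS, 0.20 for Tgfb1 in LPS+IFNb minus Saline and -0.06 for the Igf1 interaction. With protein-coding transcripts only, Pdgfa in LPS+IFNb minus Saline was 0.07 and Tgfb1 in LPS minus Saline was 0.08, and the Hbegf interaction was -0.02 with the pseudocount of 0.1.

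At an adjusted p under 0.01, 4639 genes passed for LPS against Saline, 4263 for IFNb against Saline, 2328 for LPS+IFNb against LPS, 2413 for LPS+IFNb against IFNb, 3144 for LPS against IFNb and 401 for the interaction. With a change of at least 2-fold, 3028 passed for LPS, 2577 for IFNb and 5270 for LPS+IFNb against Saline, 1322 for LPS+IFNb against LPS, 1511 for LPS+IFNb against IFNb and 2361 for LPS against IFNb. Median-ratio scaling gave 4366 for IFNb against Saline and 3232 for LPS+IFNb against IFNb. Of the members, LPS+IFNb against LPS kept 2 with no filter, 2 at 0.01 and 3 at 2-fold, LPS against IFNb 3 at 2-fold, and the interaction 1 with no filter and 1 at 0.01.

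With each library left out in turn, genes passing ranged over 5300 to 6742 (LPS against Saline), 4717 to 6496 (IFNb against Saline), 7854 to 8839 (LPS+IFNb against Saline), 2723 to 4975 (LPS+IFNb against LPS), 2491 to 5542 (LPS+IFNb against IFNb), 3366 to 5340 (LPS against IFNb) and 469 to 949 (interaction). Counts moved by over 1.5 times without LPS replicate 1 or 2 (2723 and 2740) or LPS+IFNb replicate 1 or 2 (2752 and 2892) for LPS+IFNb against LPS, without IFNb replicate 1 or 2 (2786 and 2491) or LPS+IFNb replicate 1 or 2 (2832 and 3363) for LPS+IFNb against IFNb, and without any one stimulated library for the interaction (469 to 546). Members passing ranged over 6 to 7, 6 to 6, 6 to 8, 2 to 7, 4 to 6, 5 to 6 and 1 to 3 in the same order.

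Same-numbered libraries did not deviate together across genes (correlations of deviations -0.156 to 0.141 between groups), which cannot show whether replicate numbers pair the samples. With the replicate number as a block, 6766, 6493, 8909, 4140, 4606, 4718 and 728 genes and 6, 6, 7, 6, 5, 5 and 2 members passed in that order, Vegfa with LPS (adjusted p = 0.0727) and the Pdgfb interaction (adjusted p = 0.0506) no longer passing. Depth is unknown, so values near 0 for Csf2, Csf3 and Areg carry no floor.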
